A study of Homo sapiens with 18 samples.

Results

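The RNA levels of 10 receptor tyrosine kinase genes were read in NCI-H211, a long-established cell line grown from a small cell lung cancer, whose tuft-like subtype is marked by POU2F3. The 10 genes, KIT, EGFR, ERBB2, ERBB3, MET, AXL, FGFR1, FGFR2, FGFR3 and EPHA2, were taken by name from the 19745 genes of the table. Of these, 8 had a mean of at least 1 TPM, a length-corrected share of each library's transcripts, over all libraries and were tested among 13067 genes, and EGFR and AXL were below that mean. The cells carried Cas9 and, stably, either a POU2F3 cDNA with the L191A change that the guide cannot cut (L191A), the same cDNA in its wild-type form (WT), or no cDNA (empty vector). Lentivirus brought in a guide against the endogenous POU2F3 gene (sgPOU2F3) or the control guide sgRosa, nearly all cells were mCherry-positive, and RNA was taken on day 5. The 6 groups of 3 libraries were thus L191A sgPOU2F3, L191A sgRosa, WT sgPOU2F3, WT sgRosa, empty-vector sgPOU2F3 and empty-vector sgRosa. Each replicate was its own infection of the group's single stable line, so p-values take in the spread of infections and libraries but not that between lines made anew, and whether a line is 1 clone is not given in the sources used here.

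Receptor tyrosine kinases sit in the cell membrane, bind a ligand outside the cell, pair up and phosphorylate each other, and adaptors that dock on the phosphorylated tails pass the signal to RAS, PI3 kinase, phospholipase C gamma and STAT proteins. KIT binds stem cell factor, the product of KITLG, and is best known in mast cells, melanocytes, germ cells and blood progenitors. It is also a frequently described surface receptor of small cell lung cancer. POU2F3, which binds the octamer DNA motif, is the transcription factor on which the tuft cell fate depends. EPHA2 binds ephrin-A ligands on neighbouring cells and is widely made in epithelial and mesenchymal tumours.

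The promoters of KIT and EPHA2 are shown because these genes had the widest range of group levels among the tested receptors. Each runs from 250 bases before to 50 bases after the RefSeq start site, 5′ to 3′ on the gene's strand (build GRCh38.p14), and capitals mark matches to the motifs searched. KIT lies at chr4:54657707-54658006 on the plus strand and EPHA2 at chr1:16156020-16156319 on the minus strand.
KIT: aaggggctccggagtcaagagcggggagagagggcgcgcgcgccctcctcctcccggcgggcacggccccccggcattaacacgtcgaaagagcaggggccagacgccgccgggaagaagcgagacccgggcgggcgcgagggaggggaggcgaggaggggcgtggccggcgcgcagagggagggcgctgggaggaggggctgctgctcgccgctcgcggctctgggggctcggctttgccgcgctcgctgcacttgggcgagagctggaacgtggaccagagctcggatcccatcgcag
EPHA2: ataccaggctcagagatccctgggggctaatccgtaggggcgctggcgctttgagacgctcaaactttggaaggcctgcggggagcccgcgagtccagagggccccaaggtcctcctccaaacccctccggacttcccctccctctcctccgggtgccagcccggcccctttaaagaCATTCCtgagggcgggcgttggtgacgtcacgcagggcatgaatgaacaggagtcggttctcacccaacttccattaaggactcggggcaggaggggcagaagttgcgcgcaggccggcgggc
Exact matches on either strand were searched for the octamer ATGCAAAT, the AP-1 site TGANTCA and the TEAD site GGAATG. The KIT window held none of them and the EPHA2 window held 1, a TEAD match on the opposite strand whose first base lies 73 bases before the start site. Of 34943 RefSeq promoter windows of that length, 1.77% held the octamer, 7.72% the AP-1 site and 14.0% the TEAD site. RefSeq windows of 8 of the 10 receptors were searched, 14 windows in all, and none of the 14 held the octamer. ERBB3 and FGFR1 were not among the receptors searched, so this count does not cover them. A match is a run of letters and not a measured binding site, and the lack of one says only that the letters are not in the window.

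The deposited TPM columns each sum to the same total, so read depth is unknown and no counting error could be given. A pair of libraries, L191A sgRosa replicate 1 and WT sgPOU2F3 replicate 1, stood apart from the others. Their median tested gene was at 7.05 and 12.7 TPM, against 18.6 to 26.4 TPM in the other 16, and genes of cytosolic ribosomal proteins held 38.0% and 32.8% of their TPM, against 15.8% to 26.4%. Against the other libraries of its own group, the first of them was also low in long transcripts (slope −0.58 log2 units per doubling of transcript length). The second was less so (−0.18, against −0.11 to 0.29 in the other 16). The top of that range comes from L191A sgRosa replicates 2 and 3, each read against a mean that holds the skewed library. Results that rest on these libraries are therefore given in all 18 libraries and in the 16 without this skewed pair; in the 18, the spread shared by all groups takes in the pair. The median log2 change over all tested genes ran from −0.67 to 0.79 over the 12 comparisons with 18 libraries and from −0.31 to 0.28 with 16, and receptor changes are to be read against it. POU2F3 averaged 646 ± 25.7 TPM in L191A sgPOU2F3 cells, 675 ± 475 TPM in L191A sgRosa cells (942 TPM without the skewed library), 1154 ± 114.5 and 1792 ± 90.0 TPM in WT cells with sgPOU2F3 and with sgRosa, and 281.5 ± 33.1 and 729.5 ± 108 TPM in empty-vector cells with sgPOU2F3 and with sgRosa (SD, n = 3). Reads of the cDNA may be counted in these values, which therefore do not measure loss of the endogenous protein.

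KIT stood high in 1 group. The gene (chromosome 4, 54657918 to 54740715, plus strand, protein-coding, GRCh38) averaged between 10.1 and 22.0 TPM in 5 of the groups, against 96.3 ± 10.6 TPM in empty-vector sgRosa cells (SD, n = 3). Thus KIT RNA was low after sgPOU2F3 in empty-vector cells, and was low with either cDNA also under the control guide. The L191A libraries read 12.5, 13.1 and 11.2 TPM with sgPOU2F3 and 3.21 (skewed library), 14.8 and 12.4 TPM with sgRosa. The WT libraries read 18.01 (skewed library), 19.6 and 19.8 TPM with sgPOU2F3 and 22.0, 19.0 and 23.3 TPM with sgRosa. The empty-vector libraries read 18.03, 25.0 and 23.1 TPM with sgPOU2F3 and 91.1, 89.5 and 108.5 TPM with sgRosa. The lowest empty-vector sgRosa library lay above the highest library of any other group, and empty-vector sgPOU2F3, WT sgRosa and WT sgPOU2F3 overlapped each other. The L191A groups overlapped each other and lay below the 3 intermediate groups in each library.

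In empty-vector cells KIT fell with sgPOU2F3 by 2.09 on the log2(TPM + 1) scale (SE 0.34, limma adjusted p = 0.000503), a level 4.37-fold lower than with sgRosa, and the same value had an adjusted p of 1.96e-09 in 16 libraries. In L191A cells its log2 change with sgPOU2F3 was 0.46 (adjusted p = 0.365), and −0.14 (adjusted p = 0.689) in 16 libraries. In WT cells it was −0.15 (adjusted p = 0.739), and −0.11 (adjusted p = 0.519) in 16. The difference of the sgPOU2F3 effect from that of empty-vector cells passed the test for L191A (2.55, SE 0.48, adjusted p = 0.00698) and for WT (1.93, SE 0.48, adjusted p = 0.0242). These were 1.95 and 1.97 in 16 libraries, both called. The WT difference lost its call without any 1 of 6 libraries in turn (adjusted p 0.0502 to 0.0644).

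Under sgRosa, KIT was lower in L191A than in empty-vector cells by 9.50-fold in means (log2 difference −3.33, SE 0.34, adjusted p = 8.87e-06). That ratio takes in the skewed library, without which L191A sgRosa cells averaged 13.6 TPM, against 10.1 TPM with it. KIT was lower in WT than in empty-vector cells by 4.49-fold (−2.12, SE 0.34, adjusted p = 0.00102). In 16 libraries these differences were −2.74 (adjusted p = 1.04e-09) and −2.12 (adjusted p = 4.06e-09). L191A cells lay below WT cells under sgRosa (−1.22, adjusted p = 0.00976, and −0.62, adjusted p = 0.00164, in 16 libraries). Under sgPOU2F3, KIT differed by −0.79 between L191A and empty-vector cells (adjusted p = 0.332, and 0.000318 in 16 libraries) and by −0.60 between L191A and WT cells (adjusted p = 0.296), which was −0.64 (adjusted p = 0.00203) in 16 libraries. The comparisons with empty-vector sgRosa cells and the differences of guide effects share those 3 high libraries, so they are not separate observations. In RNA from whole cultures, fewer cells that make KIT and less KIT RNA in each cell cannot be told apart.

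**Figure D1:**
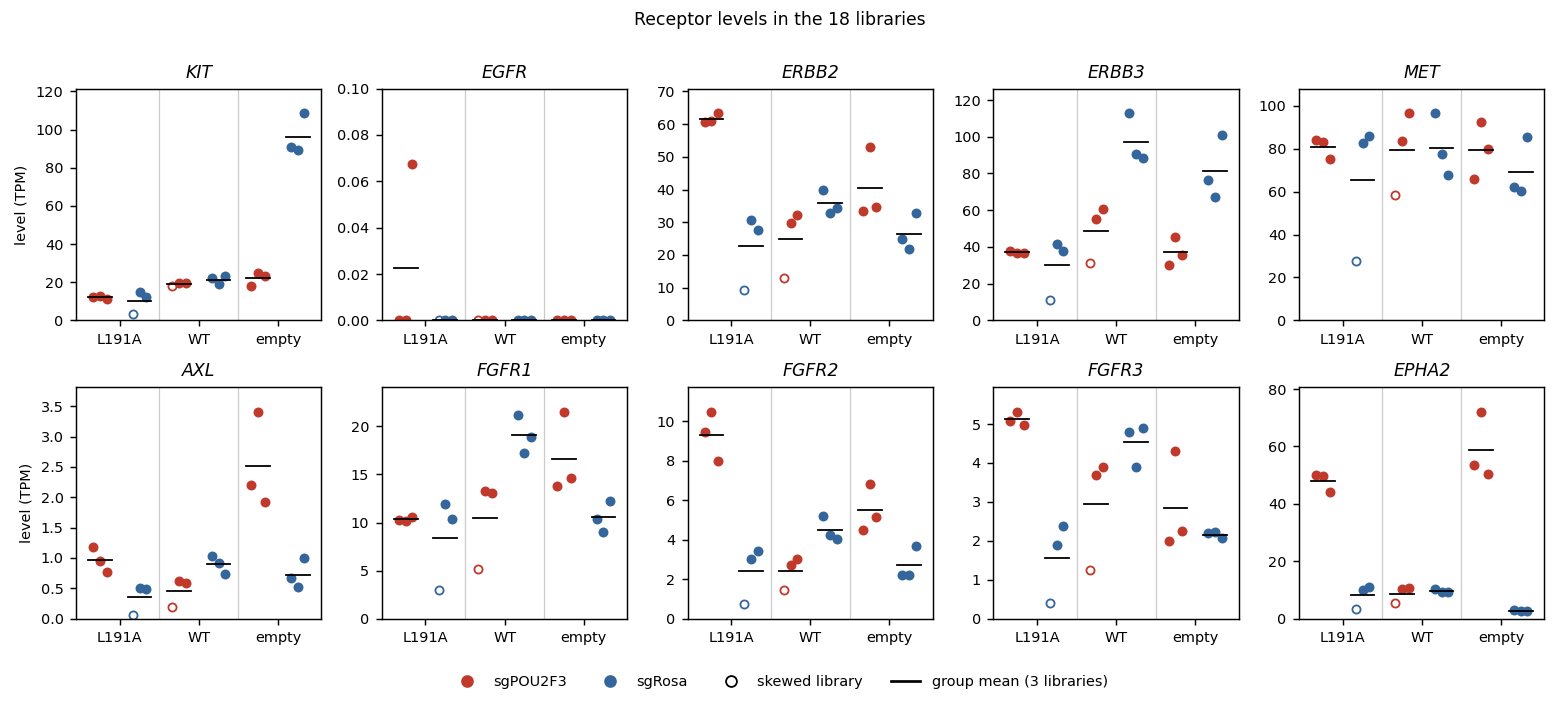
Level of each of the 10 receptors in TPM (vertical axes, linear, from 0, each with its own range) in L191A, WT and empty-vector cells. Red points are sgPOU2F3 libraries, blue points sgRosa libraries, open points the skewed pair and bars the means of 3 libraries; KIT is at most 25.0 TPM in every library of 5 groups, against a mean of 96.3 TPM in empty-vector sgRosa cells, while EPHA2 is above 44 TPM in the L191A sgPOU2F3 and empty-vector sgPOU2F3 libraries and below 12 TPM elsewhere.

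EPHA2, the ephrin-A receptor, was lowest in the group where KIT was highest and had the widest range. The gene (chromosome 1, 16124337 to 16156087, minus strand, protein-coding) was at 47.9 ± 3.26 TPM in L191A sgPOU2F3 and 58.7 ± 11.7 TPM in empty-vector sgPOU2F3 cells (SD, n = 3). It was between 8.20 and 9.64 TPM in L191A sgRosa, WT sgPOU2F3 and WT sgRosa cells, and empty-vector sgRosa cells held 2.77 ± 0.241 TPM. So EPHA2 was high with sgPOU2F3 in L191A and empty-vector cells, and under the control guide cells with either cDNA held more EPHA2 than empty-vector cells. The L191A libraries read 50.01, 49.5 and 44.1 TPM with sgPOU2F3 and 3.53 (skewed library), 10.04 and 11.03 TPM with sgRosa. The WT libraries read 5.37 (skewed library), 10.2 and 10.6 TPM with sgPOU2F3 and 10.3, 9.14 and 9.45 TPM with sgRosa. The empty-vector libraries read 53.5, 72.1 and 50.5 TPM with sgPOU2F3 and 3.03, 2.55 and 2.74 TPM with sgRosa. The 2 high groups did not overlap each other in the libraries at hand, the 3 middle groups did, and each empty-vector sgRosa library lay below every other library.

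With sgPOU2F3, EPHA2 rose by 3.97 log2 units in empty-vector cells (SE 0.31, limma adjusted p = 1.65e-07), which is 21.2-fold in means. It rose by 2.53 in L191A cells (SE 0.31, adjusted p = 5.55e-05), or 5.84-fold, and by 2.08 (adjusted p = 2.35e-08) in 16 libraries. The 5.84-fold takes in the skewed library, without which L191A sgRosa cells averaged 10.5 TPM, against 8.20 TPM with it. In WT cells the log2 change was −0.18 (adjusted p = 0.673) and, in 16 libraries, 0.11. The guide effect was lower in WT than in empty-vector cells by 4.14 (difference −4.14, adjusted p = 1.83e-05, and −3.86 in 16 libraries) and higher in L191A than in WT cells by 2.71 (adjusted p = 0.00204, and 1.98 in 16 libraries), both called in 16 as well. Between L191A and empty-vector cells it differed by −1.44 (adjusted p = 0.0656), a difference called in 16 libraries (−1.89, adjusted p = 6.28e-06) and without L191A sgRosa replicate 1 alone (−1.89, adjusted p = 0.000884). Under sgPOU2F3, L191A cells lay 2.38 above WT cells (adjusted p = 7.77e-05, and 2.09 in 16 libraries), WT cells lay 2.65 below empty-vector cells (log2 difference −2.65, adjusted p = 2.14e-05, and −2.37 in 16 libraries), and L191A cells differed from empty-vector cells by −0.27 (adjusted p = 0.879, and 0.123 in 16 libraries). Under sgRosa, EPHA2 was higher than in empty-vector cells in L191A (1.16, adjusted p = 0.0134, and 1.61 in 16 libraries) and in WT cells (1.50, adjusted p = 0.00758). The L191A call was lost without empty-vector sgRosa replicate 3 (adjusted p = 0.0535) and with these groups fitted alone (0.185). L191A and WT cells differed there by −0.33 in 18 libraries and 0.12 in 16, neither called, and by 0.37 with median-ratio scaling and 0.42 with each library's trend on transcript length removed, both called.

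Of the ERBB family, EGFR, the receptor for EGF, was listed at 0 in 17 libraries and at 0.0676 TPM in L191A sgPOU2F3 replicate 3. It was not tested, and with depth unknown no limit can be set on its level. The gene lies on chromosome 7 (55019021 to 55211628, plus strand).

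ERBB2, the co-receptor with no known ligand of its own (chromosome 17, 39687914 to 39730426, plus strand), was highest in L191A sgPOU2F3 cells, at 61.6 ± 1.44 TPM against 22.7 ± 11.6 TPM in L191A sgRosa cells (29.3 TPM without the skewed library). The L191A libraries read 60.6, 61.0 and 63.3 TPM with sgPOU2F3 and 9.41 (skewed library), 30.8 and 27.8 TPM with sgRosa. WT libraries read 13.1 (skewed library), 29.8 and 32.2 TPM with sgPOU2F3 and 39.9, 32.8 and 34.5 TPM with sgRosa. Empty-vector libraries read 33.5, 52.9 and 34.6 TPM with sgPOU2F3 and 24.9, 21.9 and 32.8 TPM with sgRosa. The 3 L191A sgPOU2F3 libraries lay above all 15 others. ERBB2 rose with sgPOU2F3 in L191A cells (1.56, SE 0.38, limma adjusted p = 0.0194, and 1.05, adjusted p = 0.000615, in 16 libraries). This call was lost without any 1 of the L191A sgPOU2F3 replicates (adjusted p 0.0673 to 0.0703). In empty-vector cells the log2 change was 0.57 (adjusted p = 0.344, and 0.00666 in 16 libraries), in WT cells −0.59 (adjusted p = 0.235) and −0.20 in 16, not called, and the L191A effect exceeded that of WT cells by 2.15 (adjusted p = 0.0239, and 1.25, adjusted p = 0.00419, in 16 libraries), a call lost in 5 of the leave-outs of 1 library (adjusted p 0.0528 to 0.0692). Under sgPOU2F3, L191A cells also lay above WT cells (1.37, adjusted p = 0.0244, and 0.97, adjusted p = 0.000474, in 16 libraries), a call lost without any 1 of the L191A sgPOU2F3 replicates or WT sgPOU2F3 replicate 1 (adjusted p 0.0723 to 0.105).

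ERBB3, which binds neuregulins and signals mainly through partners such as ERBB2 (chromosome 12, 56076799 to 56103505, plus strand), averaged 30.2 to 48.9 TPM in both L191A groups and in the sgPOU2F3 groups of WT and empty-vector cells, against 97.3 ± 13.5 TPM in WT sgRosa and 81.6 ± 17.5 TPM in empty-vector sgRosa cells (SD, n = 3). The L191A libraries read 37.6, 37.0 and 36.9 TPM with sgPOU2F3 and 11.4 (skewed library), 41.7 and 37.5 TPM with sgRosa. WT libraries read 31.0 (skewed library), 55.1 and 60.5 TPM with sgPOU2F3 and 112.7, 90.8 and 88.2 TPM with sgRosa. Empty-vector libraries read 30.4, 45.4 and 35.6 TPM with sgPOU2F3 and 76.6, 67.2 and 101.0 TPM with sgRosa. The WT and empty-vector sgRosa libraries overlapped each other and lay above the 12 others.

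ERBB3 fell with sgPOU2F3 in empty-vector cells (−1.11, SE 0.37, limma adjusted p = 0.0476, and 1.84e-05 in 16 libraries), a call lost without any 1 of the 6 libraries compared (adjusted p 0.0572 to 0.19), with no filter on low values (0.0591), with a mean of at least 5 TPM (0.0555) and with a pseudocount of 0.1 (0.0579). In WT cells the change was −1.03 (adjusted p = 0.0754), and −0.73 (adjusted p = 0.00898) in 16 libraries, and in L191A cells it was 0.48 and −0.09 with 18 and 16 libraries, not called. Under sgRosa, ERBB3 was lower in L191A than in WT cells (−1.84, adjusted p = 0.00131, and −1.27 in 16 libraries) and than in empty-vector cells (−1.58, adjusted p = 0.00709, and −1.01 in 16 libraries). With the compared groups fitted alone neither was called (adjusted p = 0.0504 and 0.162). The difference of the guide effect between L191A and empty-vector cells was 1.60 (adjusted p = 0.0785), called in 16 libraries at 1.03 (adjusted p = 0.00458).

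The 3 FGF receptors tested were low to moderate and did not share 1 pattern. FGFR2 (chromosome 10, 121478334 to 121598458, minus strand) read 9.48, 10.5 and 7.98 TPM in L191A sgPOU2F3 libraries, against 0.745 (skewed library), 3.04 and 3.44 TPM in L191A sgRosa libraries. It read 1.46 (skewed library), 2.71 and 3.03 TPM in WT sgPOU2F3 libraries, against 5.23, 4.25 and 4.03 TPM in WT sgRosa libraries. It read 4.47, 6.84 and 5.17 TPM in empty-vector sgPOU2F3 libraries, against 2.21, 2.21 and 3.69 TPM in empty-vector sgRosa libraries. The L191A sgPOU2F3 libraries lay above all others, and WT cells alone had less FGFR2 with sgPOU2F3 than with sgRosa. FGFR2 rose with sgPOU2F3 in L191A cells (1.70, SE 0.31, limma adjusted p = 0.00212, and 1.28, adjusted p = 0.000212, in 16 libraries), or 3.86-fold in means. That ratio takes in the skewed library, without which L191A sgRosa cells averaged 3.2 TPM, against 2.4 TPM with it. In empty-vector cells the change was 0.82 (adjusted p = 0.0815, and 0.000997 in 16 libraries) and in WT cells −0.72 (adjusted p = 0.106) and −0.50 (adjusted p = 0.0512) in 16. The guide effect was higher in L191A than in WT cells by 2.42 (adjusted p = 0.0037, and 1.78, adjusted p = 0.000541, in 16 libraries) and lower in WT than in empty-vector cells by 1.54 (difference −1.54, adjusted p = 0.0438, and −1.32, adjusted p = 0.00157, in 16 libraries), the second lost in 10 of the leave-outs of 1 library (adjusted p 0.0585 to 0.123).

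Under sgPOU2F3, FGFR2 was higher in L191A than in WT cells (1.63, adjusted p = 0.00197, and 1.41 in 16 libraries) and lower in WT than in empty-vector cells (−0.95, adjusted p = 0.0385, and −0.73, adjusted p = 0.00593, in 16 libraries), a call lost without WT replicate 1 or 2 or any empty-vector sgPOU2F3 replicate when these were left out 1 at a time. Under sgRosa, the lower FGFR2 of L191A than of WT cells (−0.80, adjusted p = 0.0387) was lost without L191A sgRosa replicate 1 or any WT sgRosa replicate. It was −0.37 (adjusted p = 0.107) in 16 libraries, −0.26 (adjusted p = 0.191) with median-ratio scaling, and turned to 0.0024 with each library's trend on transcript length removed.

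FGFR3 (chromosome 4, 1793293 to 1808872, plus strand) read 5.08, 5.32 and 4.98 TPM in L191A sgPOU2F3 libraries, against 0.411 (skewed library), 1.89 and 2.38 TPM in L191A sgRosa libraries. It read 1.25 (skewed library), 3.69 and 3.89 TPM in WT sgPOU2F3 libraries, against 4.80, 3.89 and 4.90 TPM in WT sgRosa libraries. It read 1.98, 4.31 and 2.25 TPM in empty-vector sgPOU2F3 libraries, against 2.19, 2.23 and 2.06 TPM in empty-vector sgRosa libraries. The empty-vector groups overlapped and the L191A groups did not. FGFR3 rose with sgPOU2F3 in L191A cells (1.35, SE 0.32, limma adjusted p = 0.0191, and 0.97, adjusted p = 0.00286, in 16 libraries), a call lost without L191A sgRosa replicate 1 or any L191A sgPOU2F3 replicate. This effect exceeded that of WT cells by 1.92 (adjusted p = 0.0209, and 1.17, adjusted p = 0.0113, in 16 libraries), a call lost in 4 of the leave-outs of 1 library (adjusted p 0.0506 to 0.0588). Under sgRosa, L191A cells lay below WT cells (−1.20, adjusted p = 0.00797, and −0.82, adjusted p = 0.00232, in 16 libraries), a call that was lost with the length trend removed (−0.39, adjusted p = 0.0652), and WT cells differed from empty-vector cells by 0.80 (adjusted p = 0.174, and 0.00231 in 16 libraries).

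FGFR1 (chromosome 8, 38400215 to 38468834, minus strand) read 10.3, 10.2 and 10.6 TPM in L191A sgPOU2F3 libraries, against 2.97 (skewed library), 11.9 and 10.4 TPM in L191A sgRosa libraries. It read 5.13 (skewed library), 13.2 and 13.1 TPM in WT sgPOU2F3 libraries, against 21.2, 17.2 and 18.9 TPM in WT sgRosa libraries. It read 13.8, 21.5 and 14.6 TPM in empty-vector sgPOU2F3 libraries, against 10.4, 8.996 and 12.2 TPM in empty-vector sgRosa libraries. The sgPOU2F3 libraries lay below the sgRosa libraries in WT cells and above them in empty-vector cells, and the L191A groups overlapped. No guide effect on FGFR1 was called in 18 libraries; in 16, it rose in empty-vector cells (0.60, limma adjusted p = 0.0034), fell in WT cells (−0.50, adjusted p = 0.0322), and these effects differed by −1.10 (adjusted p = 0.00208, against −1.50 and 0.117 in 18). Under sgRosa it was lower in L191A than in WT cells (−1.26, adjusted p = 0.0144, and −0.73, adjusted p = 0.00168, in 16 libraries), a call lost without L191A sgRosa replicate 1 alone (−0.73, adjusted p = 0.054) or WT sgRosa replicate 1 alone.

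MET, the receptor for hepatocyte growth factor (chromosome 7, 116672390 to 116798386, plus strand), was among the higher receptors in every group, and in 18 or 16 libraries, with TPM as deposited, none of its 12 comparisons was called. With median-ratio scaling 3 were called, the sgPOU2F3 effect in WT cells (0.45) and L191A minus empty vector (0.44) and minus WT (0.35) under sgRosa, and with the length trend removed 6 were. The L191A libraries read 84.2, 83.0 and 75.2 TPM with sgPOU2F3 and 27.7 (skewed library), 82.7 and 85.8 TPM with sgRosa. WT libraries read 58.3 (skewed library), 83.3 and 96.4 TPM with sgPOU2F3 and 96.4, 77.4 and 67.7 TPM with sgRosa. Empty-vector libraries read 65.9, 92.3 and 79.7 TPM with sgPOU2F3 and 62.2, 60.3 and 85.2 TPM with sgRosa. All 6 groups overlapped. Its group means without the skewed pair spanned 0.39 log2 units, against 2.87 for KIT and 3.97 for EPHA2.

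AXL, a TAM-family receptor bound by GAS6 (chromosome 19, 41219203 to 41261766, plus strand), averaged under 1 TPM and entered a test only with no filter on low values, among 18471 genes. The L191A libraries read 1.18, 0.943 and 0.764 TPM with sgPOU2F3 and 0.0631 (skewed library), 0.499 and 0.496 TPM with sgRosa. WT libraries read 0.190 (skewed library), 0.615 and 0.585 TPM with sgPOU2F3 and 1.03, 0.913 and 0.734 TPM with sgRosa. Empty-vector libraries read 2.20, 3.41 and 1.93 TPM with sgPOU2F3 and 0.662, 0.515 and 1.00 TPM with sgRosa. The 3 empty-vector sgPOU2F3 libraries lay above all others. In that test AXL rose with sgPOU2F3 in empty-vector cells (1.01, limma adjusted p = 0.00126), where 14.6% of all genes were called. Under sgPOU2F3 it was lower than in empty-vector cells in WT (−1.25, adjusted p = 0.000196, 16.3% of genes called) and in L191A cells (−0.82, adjusted p = 0.0129, 4.27% called). Under sgRosa it was lower in L191A than in WT cells (−0.50, adjusted p = 0.0348, 45.6% called). The guide effect was lower in WT than in empty-vector cells (−1.39, adjusted p = 0.00357, 6.26% called) and higher in L191A than in WT cells (0.93, adjusted p = 0.0361, 9.97% called). Without the skewed pair, a fit chosen after seeing the data, 2 of these 6 were lost, L191A minus WT under sgRosa (−0.33, adjusted p = 0.109, 45.9% called) and the last difference (0.62, adjusted p = 0.104, 8.86% called). The other 4 were called there, at 1.01 (39.1% of genes), −1.11 (32.3%), −0.82 (16.8%) and −1.25 (18.7%) in the order above.

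**Figure D2:**
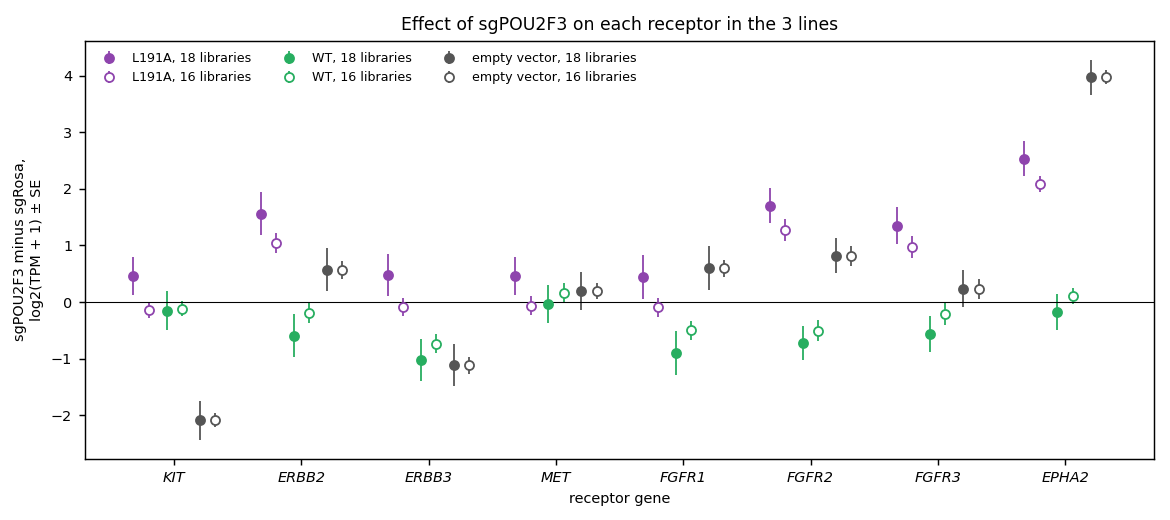
Difference between sgPOU2F3 and sgRosa in log2(TPM + 1) (vertical axis) for the 8 tested receptors in L191A, WT and empty-vector cells, with filled points from 18 libraries, open points from 16 without the skewed pair, and bars of 1 SE from limma. KIT is low in empty-vector cells alone (−2.09), EPHA2 is high in empty-vector (3.97) and L191A cells (2.53), and the L191A points of ERBB2, FGFR2 and FGFR3 lie above 0.

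Counted by comparison, the sgPOU2F3 effect in empty-vector cells was called for 3 of the 8 tested receptors (EPHA2 higher, KIT and ERBB3 lower), against 17.4% of all tested genes, and for 6 of 8 in 16 libraries, against 51.7%. In L191A cells 4 of 8 were called, all higher (EPHA2, FGFR2, ERBB2 and FGFR3), against 5.99% of genes, and 4 of 8 in 16 libraries against 10.7%. In WT cells limma called 0 of 8, against 6.81% of genes, with 3 at an unadjusted p of at most 0.05, and 2 of 8 in 16 libraries against 36.1%. The guide effect differed between WT and empty-vector cells for 3 of 8 (EPHA2, FGFR2 and KIT; 6.99% of genes) and for 5 of 8 in 16 libraries (26.7%). It differed between L191A and empty-vector cells for KIT alone in 18 libraries (6.08% of genes) and for 4 of 8 in 16 (23.3%), and between L191A and WT cells for 4 of 8 (EPHA2, FGFR2, ERBB2 and FGFR3; 11.7% of genes), and 4 of 8 in 16 (13.2%).

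Between lines under sgPOU2F3, WT differed from empty-vector cells for 2 of 8 receptors (EPHA2 and FGFR2, both lower; 20.6% of genes), and for 3 of 8 in 16 libraries (43.6%). L191A differed from WT cells for 3 of 8 (EPHA2, ERBB2 and FGFR2, all higher; 13.5% of genes), and for 5 of 8 in 16 libraries (37.4%). L191A differed from empty-vector cells for 0 of 8 by limma (3.79% of genes), with 3 at an unadjusted p of at most 0.05, and for 5 of 8 in 16 libraries (22.9%). Under sgRosa, WT differed from empty-vector cells for 2 of 8 (KIT lower, EPHA2 higher; 7.2% of genes), and for 6 of 8 in 16 libraries (34.3%). L191A differed from empty-vector cells for 3 of 8 (KIT and ERBB3 lower, EPHA2 higher; 36.0% of genes), and for 3 of 8 in 16 libraries (39.2%). L191A differed from WT cells for 5 of 8, all lower (KIT, ERBB3, FGFR1, FGFR2 and FGFR3), against 55.8% of genes, and for 4 of 8 in 16 libraries against 58.2%, so this count is near the background.

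**Figure D3:**
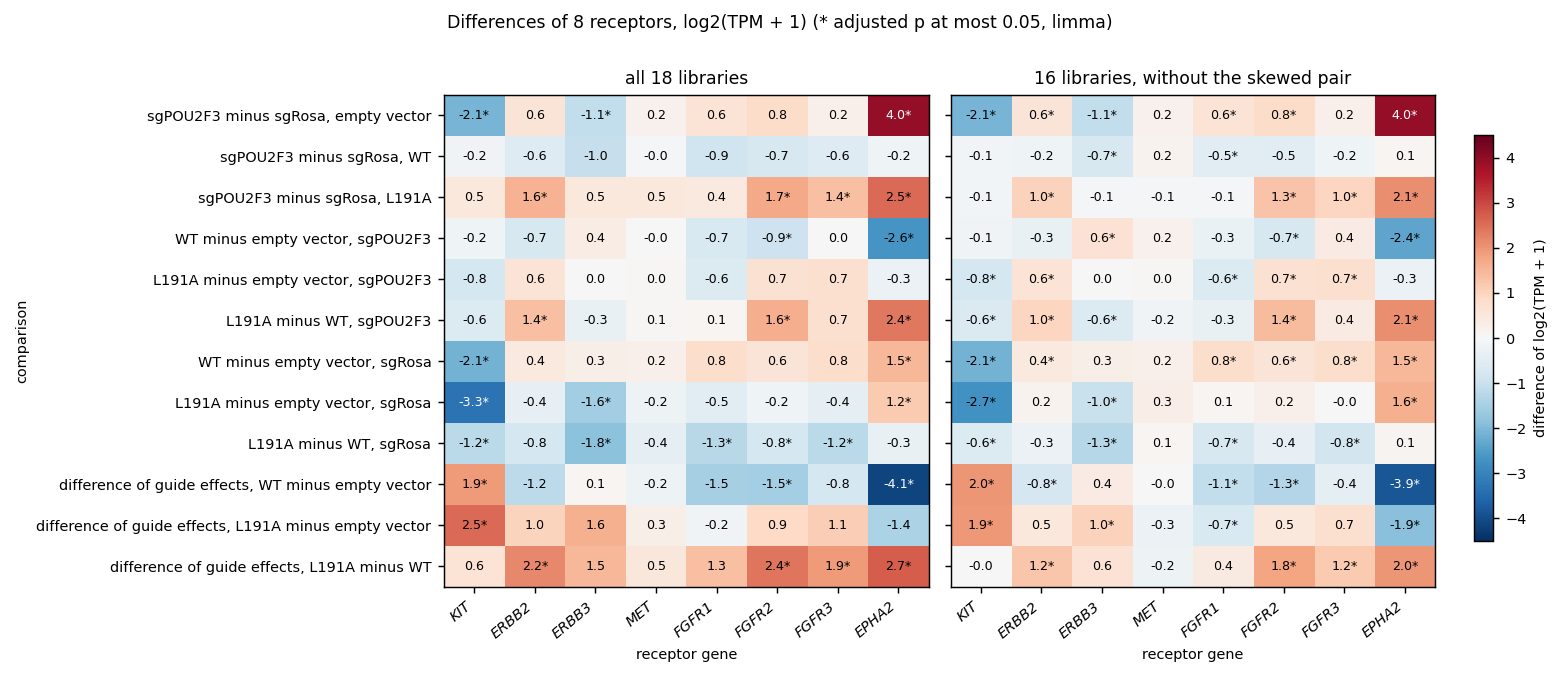
Differences in log2(TPM + 1) of the 8 tested receptors (columns) in the 12 comparisons (rows), from 18 libraries on the left and from 16 without the skewed pair on the right. Red is higher and blue lower in the group named first, and stars mark an adjusted p of at most 0.05 by limma; KIT is starred in the rows against empty-vector sgRosa cells and EPHA2 in both guides' comparisons of WT with empty-vector cells, with opposite signs (−2.65 and 1.50).

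Genes that work with these receptors were read from 4 lists: other receptors of their families, ligands, adaptors and signalling partners, and inhibitors with genes of receptor turnover. Of 19 ligands tested of 28 listed, 5 rose and 2 fell with sgPOU2F3 in empty-vector cells (7 and 4 in 16 libraries). Of all tested genes, 17.4% were called in either direction in 18 libraries and 51.7% in 16. The ligand median log2 change was 0.07, against −0.13 over all genes. HBEGF, an EGFR and ERBB4 ligand, read 56.4, 58.5 and 54.7 TPM with sgPOU2F3 and 3.26, 2.60 and 3.10 TPM with sgRosa in these cells (3.85, SE 0.19, limma adjusted p = 1.07e-09). AREG, another EGFR ligand, read 4.74, 4.95 and 5.28 TPM with sgPOU2F3 and 0.701, 0.785 and 0.311 TPM with sgRosa (1.92, SE 0.21, adjusted p = 8.42e-06). PROS1 (0.69, adjusted p = 0.00446) and GAS6 (0.78, adjusted p = 0.0095), ligands of the TAM receptors, and EFNA1 (0.59, adjusted p = 0.0397), an ephrin-A ligand of EPHA2, rose less, and the neuregulin NRG4 (−1.49, adjusted p = 0.000695) and FGF7 (−0.78, adjusted p = 0.0104) fell. In L191A cells the ligand median was 0.26, against 0.33 over all genes, and −0.02 against 0.009 in 16 libraries. There 5 ligands rose and 0 fell by limma (5 and 0 in 16 libraries), against 5.99% and 10.7% of genes called. They were HBEGF (2.93, adjusted p = 9.82e-08, and 2.82 in 16 libraries), AREG (2.00, adjusted p = 1.17e-05, and 1.96 in 16 libraries), BTC, EGF and PROS1. In WT cells 1 rose and 3 fell (3 and 4 in 16 libraries), against 6.81% of genes called in 18 libraries and 36.1% in 16. The ligand median there was −0.20, against −0.42 over all genes, and −0.13 against −0.26 in 16 libraries. HBEGF was at 0.16 (limma adjusted p = 0.528) and at 0.30 (adjusted p = 0.135) in 16.

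The ligand of KIT, stem cell factor, was measured too, although KITLG was named after its values were seen. KITLG read 59.9, 61.0 and 56.9 TPM in L191A sgPOU2F3 libraries, against 9.52 (skewed library), 64.2 and 57.5 TPM in L191A sgRosa libraries. It read 56.4 (skewed library), 63.0 and 62.6 TPM in WT sgPOU2F3 libraries, against 26.8, 25.9 and 24.2 TPM in WT sgRosa libraries. It read 45.1, 57.4 and 52.2 TPM in empty-vector sgPOU2F3 libraries, against 37.3, 35.8 and 41.0 TPM in empty-vector sgRosa libraries. The sgPOU2F3 libraries lay above the sgRosa libraries in WT and empty-vector cells. In 18 libraries the log2 changes were 1.21 in WT (adjusted p = 0.0817), 0.42 in empty-vector (adjusted p = 0.586) and 0.81 in L191A cells (adjusted p = 0.275), none of them called. In 16 libraries KITLG rose in WT (1.26, adjusted p = 1.17e-06) and empty-vector cells (0.42, adjusted p = 0.00129), and was at −0.04 in L191A cells (adjusted p = 0.906).

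Of 23 inhibitors and turnover genes, all tested, 5 rose and 0 fell by limma with sgPOU2F3 in empty-vector cells (median 0.21, against −0.13 over all genes; 9 and 4 in 16 libraries), against 17.4% of genes called in 18 libraries and 51.7% in 16. SOCS3, a feedback inhibitor of cytokine receptors, read 19.6, 30.0 and 20.9 TPM with sgPOU2F3 and 2.31, 1.75 and 2.04 TPM with sgRosa (2.995, SE 0.36, adjusted p = 2.44e-05). SPRY4, a Sprouty inhibitor of ERK signalling, read 7.37, 9.09 and 7.42 TPM with sgPOU2F3 and 2.04, 1.88 and 2.63 TPM with sgRosa (1.50, SE 0.30, adjusted p = 0.00275). ERRFI1, an inhibitor of ERBB kinases, read 16.6, 17.7 and 16.9 TPM with sgPOU2F3 and 5.73, 5.22 and 8.25 TPM with sgRosa (1.31, SE 0.27, adjusted p = 0.00318). SOCS1 (0.88) and LRIG1 (0.57) were the other called genes. In L191A cells the median was 0.84, against 0.33 over all genes, but 0.12 against 0.009 in 16 libraries. There 5 rose and 0 fell by limma (7 and 0 in 16 libraries), against 5.99% and 10.7% of genes called. Those 5 were ERRFI1 (1.78, adjusted p = 0.000469, and 1.39 in 16 libraries), LRIG1 (1.38, adjusted p = 0.00012, and 1.17 in 16 libraries), SOCS1, SOCS3 and SPRY1. In WT cells 1 rose, SOCS3, and 0 fell by limma (2 and 4 in 16 libraries), against 6.81% and 36.1% of genes called. The median there was −0.42, as over all genes, and −0.24 against −0.26 in 16 libraries. ERRFI1 was at −0.20 (limma adjusted p = 0.57) and at −0.06 (adjusted p = 0.755) in 16.

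Of 15 other receptors tested of 20 listed, 0 rose and 6 fell by limma with sgPOU2F3 in empty-vector cells (median −0.48, against −0.13 over all genes), and 4 rose and 8 fell in 16 libraries, against 17.4% of genes called in 18 libraries and 51.7% in 16. PDGFRA, the KIT-family receptor for PDGF, read 0.479, 0.642 and 0.995 TPM with sgPOU2F3 and 3.41, 3.98 and 4.33 TPM with sgRosa there (−1.53, SE 0.16, limma adjusted p = 6.6e-06). EPHA7, an ephrin receptor like EPHA2, read 13.8, 18.8 and 19.9 TPM with sgPOU2F3 and 75.1, 65.2 and 103.8 TPM with sgRosa (−2.15, SE 0.43, adjusted p = 0.00269). EPHA1 (−1.47, adjusted p = 0.00536), EPHA4 (−1.42), ERBB4 (−0.93) and EPHB3 (−1.28) also fell. In WT cells 0 rose and 6 fell (0 and 11 in 16 libraries), against 6.81% and 36.1% of genes called. The median there was −0.94, against −0.42 over all genes, and −0.57 against −0.26 in 16 libraries. EPHA1 was at −1.43 (limma adjusted p = 0.0243, and 0.000106 in 16 libraries) and PDGFRA at −0.64 (adjusted p = 0.038) and −0.56 in 16. In L191A cells 0 rose and 0 fell by limma (0 and 3 in 16 libraries), against 5.99% and 10.7% of genes called. The median there was 0.26, against 0.33 over all genes, and −0.11 against 0.009 in 16 libraries. Of 30 adaptors and signalling partners tested of 32 listed, 2 rose (HRAS, 0.73, adjusted p = 0.0117, and PIK3CD, 0.63, adjusted p = 0.0236) and 1 fell in empty-vector cells (4 and 10 in 16 libraries), with a median of −0.22, against the same 17.4% and 51.7% of genes called. The one that fell was PLCG2, phospholipase C gamma 2, at 89.1, 115.6 and 101.6 TPM with sgPOU2F3 and 251.9, 233.1 and 311.0 TPM with sgRosa (−1.37, SE 0.33, adjusted p = 0.00917). In WT cells 0 adaptors rose and 2 fell (0 and 14 in 16 libraries), against 6.81% and 36.1% of genes called, and in L191A cells 0 rose and 0 fell (0 and 1 in 16 libraries), against 5.99% and 10.7%.

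**Figure D4:**
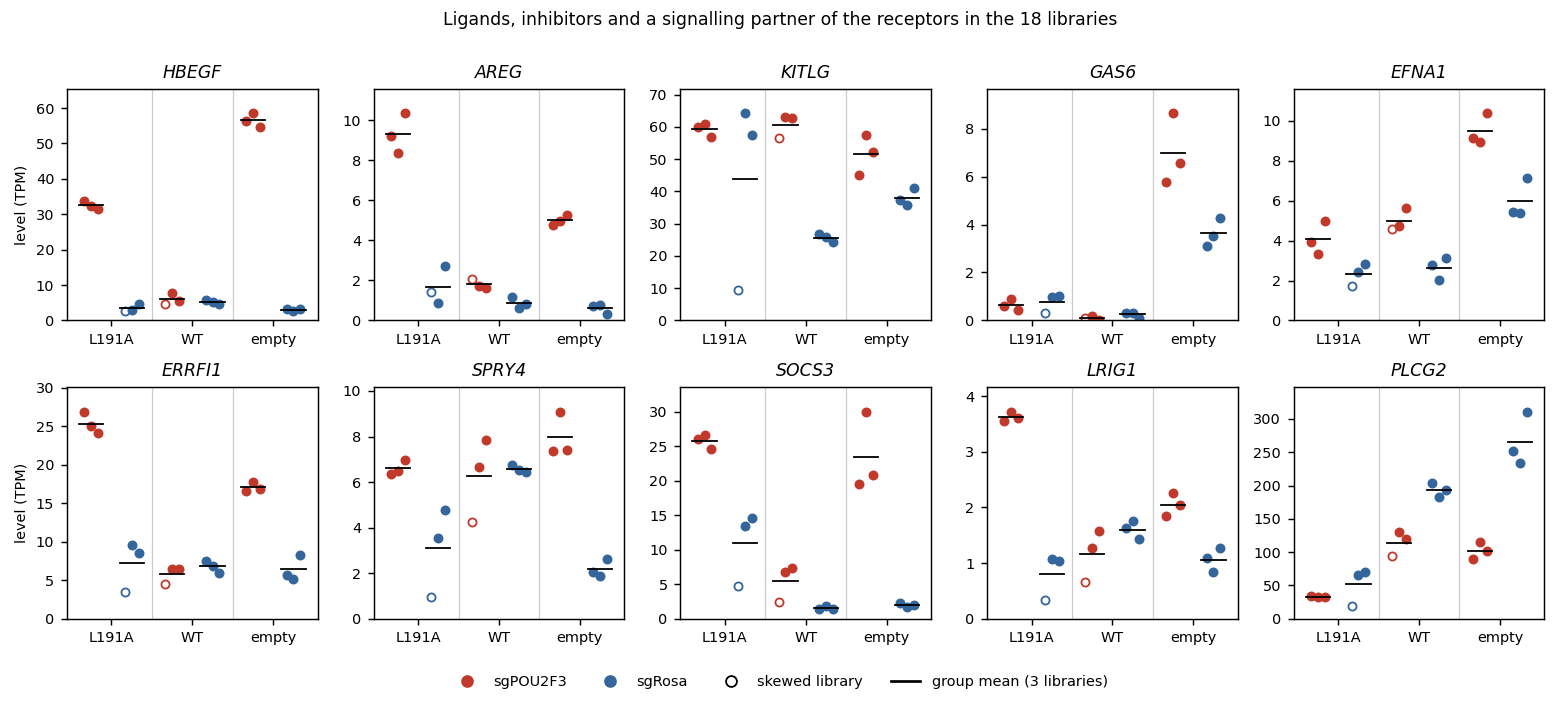
Levels in TPM (vertical axes, linear, from 0) of 5 ligands, 4 inhibitors and PLCG2 in L191A, WT and empty-vector cells, drawn as for the receptors. HBEGF, AREG, ERRFI1 and SOCS3 are higher in the L191A sgPOU2F3 and empty-vector sgPOU2F3 libraries than in the sgRosa libraries of these lines, and PLCG2 is highest in empty-vector sgRosa cells, at 233.1 to 311.0 TPM.

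Genes with group profiles most like those of the receptors were found by the root mean square (RMS) difference of log2(TPM + 1) over the 6 group means without the skewed pair, each profile centred on its own mean. The likeness describes these 6 groups only. For KIT they were FAM167A (RMS difference 0.131 log2 units), BLK (0.236), CHAD (0.261), TSPAN32 (0.264) and DDIT4L (0.275). FAM167A averaged between 0.361 and 1.58 TPM in 5 groups, against 8.91 ± 2.37 TPM in empty-vector sgRosa cells, and CHAD between 0.266 and 2.41 TPM, against 11.97 ± 2.60 TPM there (SD, n = 3). BLK averaged 0.065 to 1.28 TPM in 5 groups, against 5.42 TPM in empty-vector sgRosa cells, and TSPAN32 0.105 to 1.11 TPM, against 4.49 TPM there. FAM167A, BLK and TSPAN32 thus reached the mean of 1 TPM only through empty-vector sgRosa cells. The added 1 TPM also narrows log2 differences of values this low. For EPHA2 the most similar genes were TNFRSF12A (0.166), AJUBA (0.236) and GLIS3 (0.287). GLIS3 averaged 0.23 to 1.01 TPM outside L191A and empty-vector sgPOU2F3 cells and reached the mean of 1 TPM only through them. TNFRSF12A, the receptor for the cytokine TWEAK, averaged 175 ± 13.9 TPM in L191A sgPOU2F3 and 211.4 ± 22.8 TPM in empty-vector sgPOU2F3 cells, against 9.72 ± 0.846 TPM in empty-vector sgRosa cells. The profile of ERBB2 was most like those of LRIG1 (0.058), BOC (0.060) and CLIP4 (0.078), and that of FGFR2 most like those of ERBB2 itself (0.149), CD9 (0.15) and SPINK1 (0.152). BOC averaged 0.432 to 1.17 TPM outside L191A sgPOU2F3 cells and reached the mean of 1 TPM only through them. For ERBB3 the most similar genes were FBXL20 (0.029), CBX7 (0.044) and PHKB (0.049), for FGFR1 DUSP4 (0.032), IER2 (0.063) and APBA3 (0.077), and for FGFR3 ADGRL2 (0.077), CDON (0.094) and SYTL2 (0.115).

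Markers of the labelled kind of cell and of others were read beside these levels. Of 15 tuft markers, 13 reached 1 TPM, and their sum was 1858 to 1892 TPM in L191A sgPOU2F3, 1609 to 3630 TPM in L191A sgRosa, 4430 to 4819 TPM in WT sgPOU2F3, 5616 to 6090 TPM in WT sgRosa, 2038 to 2257 TPM in empty-vector sgPOU2F3 and 5728 to 6674 TPM in empty-vector sgRosa libraries. The tuft markers HPGDS and ALOX5AP were below 0.5 TPM in every library. Mast cells, which carry KIT, had 6 listed markers in the table, which summed to 0.120 to 1.67 TPM, with TPSAB1 and FCER1A at 0 in every library, and this sum was 0.519 to 0.674 TPM in the empty-vector sgRosa libraries where KIT was high. Of 9 fibroblast or mesenchymal markers, 8 reached 1 TPM in mean, and their sum was high in the groups where EPHA2 was high. It was 190 to 209.6 TPM in L191A sgPOU2F3 and 164.1 to 194.7 TPM in empty-vector sgPOU2F3 libraries, against 38.8 to 80.1 TPM in L191A sgRosa, WT sgPOU2F3 and WT sgRosa libraries and 17.7 to 22.1 TPM in empty-vector sgRosa libraries. VIM read 160.4 to 176.3 TPM in L191A sgPOU2F3 and 101.0 to 121.5 TPM in empty-vector sgPOU2F3 libraries, against 7.11 to 9.11 TPM in empty-vector sgRosa libraries, whereas PDGFRB was highest in WT sgRosa cells (mean 0.507 TPM). VIM alone thus held most of the sum in the L191A sgPOU2F3 and empty-vector sgPOU2F3 libraries. The part of these markers in the EPHA2 result was not tested. A sum of 7 neuroendocrine markers, 3 of them at 1 TPM or more in mean, was 78.4 to 80.5 TPM in L191A sgPOU2F3, 35.8 to 115.1 TPM in L191A sgRosa, 63.8 to 117.5 TPM in WT sgPOU2F3, 151.4 to 166.7 TPM in WT sgRosa, 58.6 to 86.7 TPM in empty-vector sgPOU2F3 and 132.0 to 185.5 TPM in empty-vector sgRosa libraries. It was thus higher with sgRosa than with sgPOU2F3 in WT and empty-vector cells, as ERBB3 was. NCAM1 (20.8 to 157.9 TPM over all libraries) was the highest of the 7 and held most of the sum. It averaged 129.2 and 80.9 TPM in WT and 128.8 and 52.7 TPM in empty-vector cells, with sgRosa and with sgPOU2F3. In these lines DLL3 was also higher with sgRosa in each library, whereas INSM1 overlapped between the guides. The part of these and of the tuft markers in the KIT and ERBB3 results was not tested. Endothelial markers (sum 0.069 to 0.804 TPM) and markers of embryonic kidney cells, in which lentivirus is packaged, (45.2 to 229.2 TPM) were also read, and in the last list PAX2, LHX1, NEFL and NEFM were below 0.5 TPM in every library.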

How the data were processed

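Poly(A) RNA of the 18 libraries was extracted with TRIzol and made into TruSeq libraries, per the labels' protocols. The authors deposited TPM. The submitters' processing notes name kallisto and hg38; its version, transcripts and strand setting were not given in the sources used here. The table held 19875 entries, of which 130 named no gene (103 fragments of descriptions and 27 spreadsheet dates, 1.64% to 2.43% of TPM) and were left out. Library totals are equal, so depth is unknown. Columns were matched to samples by name. Gene coordinates and transcript lengths came from the GENCODE annotation of GRCh38, and 97.7% of names matched.

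Values were taken as log2(TPM + 1), which understates changes of low genes. In R 4.3.3, limma 3.58.1 was run with a variance trend and a coefficient for each group on the 13067 genes whose mean reached 1 TPM, and 12 two-sided contrasts were adjusted by Benjamini-Hochberg, each over all genes, at 0.05. The fit was tested on simulated data. The receptors and gene lists were chosen with earlier results of these data known. Every receptor was named. Up to 3 genes per list with the smallest p in the empty-vector guide effect were named, with any needed to state a count of 5 or fewer; profile likeness named 5 genes for KIT and 3 for each other receptor whose profile spanned at least 0.5 log2 units, passing over unnamed loci. The fit was repeated with a pseudocount of 0.1 or 5, with no filter or a mean of 5 TPM, with median-ratio scaling, without a lowess trend on transcript length (span 0.3), with the replicate number as a block, on the compared groups alone, without the skewed pair, and without each library in turn. AXL, tested with no filter, was also fitted without the skewed pair, an alternative chosen after seeing the data. The result of 1 marker gene is not reported here.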

Additional observations from a re-analysis of the deposited data

Results flagged for a closer look

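The effect of sgPOU2F3 differed between lines for 5 of the 8 tested receptors in at least 1 comparison, each by limma's test of the difference itself over all tested genes. Of all genes, 6.99% were called between WT and empty-vector cells, 6.08% between L191A and empty-vector cells and 11.7% between L191A and WT cells. The share called in any of these was not computed. Between WT and empty-vector cells the log2 difference of effects was −4.14 for EPHA2, −1.54 for FGFR2 and 1.93 for KIT. Between L191A and empty-vector cells it was 2.55 for KIT. Between L191A and WT cells it was 2.71 for EPHA2, 2.15 for ERBB2, 2.42 for FGFR2 and 1.92 for FGFR3. The L191A and WT groups each hold 1 library of the skewed pair. Without the pair, the WT minus empty-vector differences were −3.86 for EPHA2, −1.32 for FGFR2 and 1.97 for KIT. The KIT difference between L191A and empty-vector cells was then 1.95. The L191A minus WT differences were 1.98 for EPHA2, 1.25 for ERBB2, 1.78 for FGFR2 and 1.17 for FGFR3. All were still called, where 26.7%, 23.3% and 13.2% of all genes were called, in that order of comparisons. In 18 libraries, some leave-outs of 1 library lost the calls of FGFR2 and KIT between WT and empty-vector cells. Some also lost those of ERBB2 and FGFR3 between L191A and WT cells, which were lost too with the compared groups fitted alone.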

How the results depend on the processing

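Counts of receptors called, of 8 tested, are given in the order of the guide effect in empty-vector, WT and L191A cells, WT minus empty vector, L191A minus empty vector and L191A minus WT under sgPOU2F3, the same 3 under sgRosa, and the same 3 for the guide effect. They were 3, 0, 4, 2, 0, 3, 2, 3, 5, 3, 1 and 4 in 18 libraries. They were 6, 2, 4, 3, 5, 5, 6, 3, 4, 5, 4 and 4 without the skewed pair, 6, 2, 4, 4, 4, 5, 3, 4, 6, 5, 3 and 4 with median-ratio scaling, and 7, 2, 4, 5, 5, 6, 5, 5, 5, 6, 5 and 5 with the length trend removed. With the compared groups alone they were 5, 0, 1, 2, 5, 4, 5, 1, 0, 4, 1 and 2. With a pseudocount of 0.1 they were 2, 0, 4, 1, 0, 3, 2, 3, 5, 2, 1 and 4, with 5 they were 4, 1, 4, 2, 0, 3, 2, 3, 5, 3, 1 and 5, and with no filter, where AXL and EGFR enter and 10 receptors are tested, 3, 0, 4, 2, 1, 3, 2, 3, 5, 3, 1 and 5. With a mean of at least 5 TPM, which leaves 6 receptors, they were 2, 0, 2, 1, 0, 2, 2, 3, 3, 2, 1 and 2. Leaving out 1 library at a time gave 2 to 2, 0 to 1, 2 to 4, 1 to 2, 0 to 0, 2 to 3, 2 to 2, 2 to 3, 3 to 6, 1 to 3, 1 to 2 and 2 to 6. The percentages of all genes called there were 9.82 to 13.9, 0.842 to 21.9, 3.66 to 13.5, 13.2 to 20.6, 2.69 to 2.87, 7.61 to 12.6, 3.19 to 5.75, 10.9 to 57.3, 34.1 to 68.2, 4.11 to 9.38, 2.23 to 19.3 and 3.20 to 55.6. The 1 of the guide effect in WT cells came without WT sgPOU2F3 replicate 3, where the 21.9% was called. The 6 of L191A minus WT under sgRosa came without L191A sgRosa replicate 2 or 3, where 67.4% and 68.2% of all genes were called. The same leave-outs gave the 6 of the last comparison, with 55.6% and 55.5% of genes called. Without WT sgRosa replicate 1, that comparison had 2 receptors and 3.20% of genes called. With no filter and without the skewed pair together, chosen after seeing the data, the counts of the 10 receptors were 7, 1, 4, 4, 6, 5, 5, 3, 4, 6, 3 and 4. Of 96 receptor results, 12 lost and 12 gained a call when the compared groups were fitted alone. Those lost were ERBB2, FGFR2 and FGFR3 of the L191A guide effect (adjusted p 0.187 to 0.29), EPHA2 (0.185) and ERBB3 (0.162) of L191A minus empty vector under sgRosa, KIT (0.135), ERBB3 (0.0504), FGFR1 (0.11), FGFR2 (0.166) and FGFR3 (0.0668) of L191A minus WT under sgRosa, and ERBB2 (0.0818) and FGFR3 (0.0698) of the L191A minus WT difference of guide effects. FGFR2 lost its calls in WT minus empty vector under sgPOU2F3 and for the guide effect with no filter (adjusted p 0.0531 and 0.0547) and with a pseudocount of 0.1 (0.0718 and 0.0867). Percentages of all tested genes called moved as well. In the same order they were 26.5, 13.0, 9.70, 30.5, 8.27, 22.3, 13.6, 31.4, 50.3, 15.2, 12 and 13.8 with median-ratio scaling, 37.0, 27.5, 12.3, 43.2, 12.6, 32.9, 22.3, 33.1, 49.4, 27.3, 15.9 and 15.6 with the length trend removed, and 37.4, 1.69, 1.10, 21.7, 18.2, 19.7, 28.1, 1.41, 12.9, 18.2, 2.44 and 2.30 with the compared groups alone. For the guide effect in WT cells and the L191A minus WT difference of guide effects they were 1.71 and 5.36 with a pseudocount of 0.1, 18.9 and 30.2 with 5, and 1.76 and 4.44 with a mean of at least 5 TPM. The cause of these shifts was not tested.

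Directions turned, with a call in 18 libraries or in the alternative, for results of MET, and of FGFR2 and EPHA2 in comparisons with the skewed L191A sgRosa library. All were uncalled in 18 libraries except FGFR2 in L191A minus WT, and all that follow passed the test in the alternative named except that one. MET in WT cells was 0.45 with median-ratio scaling and 0.56 with the length trend removed, L191A minus empty vector under sgRosa 0.44 and 0.57, and L191A minus WT under sgRosa 0.35 and 0.51. With the length trend removed, the difference of MET guide effects was −0.55 for L191A minus empty vector and −0.68 for L191A minus WT. EPHA2 in L191A minus WT under sgRosa was 0.37 with median-ratio scaling and 0.42 with the length trend removed, and FGFR2 with the trend removed was 0.49 in L191A minus empty vector and 0.0024 in L191A minus WT, both under sgRosa. More of the 96 receptor results turned with no call in either fit. They were 18 without the skewed pair, 16 with the length trend removed and 13 with median-ratio scaling. KIT and ERBB3 of the L191A guide effect were among those that turned without the skewed pair.

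Same-numbered replicates did not steadily deviate together (45 pairs, r from −0.577 to 0.594, median −0.011, 16 over 0.1, and 8 of 18 libraries closest to their own number). Both skewed libraries are replicate 1, so these values cannot decide whether the numbers pair the samples. With the replicate number as a block the counts were 3, 0, 4, 2, 0, 3, 2, 3, 5, 3, 1 and 5, in the order above, 1 more in the L191A minus WT difference of guide effects, where the block also moved the share of all genes called to 30.8%, and to 11% for the guide effect in WT cells. In the same order, the percentages of all genes called with the block were 17.7, 11, 6.26, 21.2, 3.82, 13.1, 7.02, 40.1, 58.7, 6.72, 6.67 and 30.8. Depth is unknown, so no limit can be set on EGFR or on other genes listed at 0.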
